A study of Mus musculus with 42 samples.

Results

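The genes described here encode the molecular chaperones of mouse macrophages and the signalling and degradation proteins of the unfolded protein response (UPR). They were the rows of the deposited count table whose symbol begins with Dnaj, Hspa, Hspb, Hspd, Hspe, Hsph, Hsp90b or Pdia, or with Cct or Bag and a digit. Hsf1, Xbp1, Atf6, Ern1, Herpud1, Hyou1, Calr, Canx, Sdf2l1, Manf, Creld2, Tcp1, Edem1, Sel1l and Syvn1 were added by name, and Hspa8 was left out. This gave 87 of the 11160 genes in the table. By the known role of their products they comprised 3 UPR sensors or transcription factors, 20 chaperones and co-chaperones of the endoplasmic reticulum (ER), 4 protein disulfide isomerases and 4 components of ER-associated degradation (ERAD). Outside the ER there were 13 genes grouped with the cytosolic heat shock proteins and 21 cytosolic or nuclear J-domain proteins. There were also 9 mitochondrial chaperones, 7 subunits of the chaperonin TRiC and 6 BAG domain co-chaperones. The group of 13 includes Hsf1, and also Hspb11, Hspbap1 and Hspbp1, which entered by the start of their symbol.

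The cells were bone marrow-derived macrophages, grown from mouse marrow with the growth factor M-CSF. They were WT, or KO for Ms4a4a, a membrane protein of the MS4A family. Each genotype was sampled untreated (labelled as the baseline at 0 h), or after exposure to 1 µM dexamethasone (Dex) or to vehicle for 2, 8 or 24 h. Dex is a synthetic steroid of the glucocorticoid class. These 14 groups held 3 RNA-seq libraries each. The labels give neither the knockout allele, nor strain, sex or age, nor what the vehicle was, nor whether libraries of a group came from separate animals or cultures, so p-values measure the spread between these libraries, which may be technical.

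Molecular chaperones bind unfolded proteins and help them fold. Hsp70-family proteins work with J-domain (Dnaj) partners, which deliver clients and stimulate the Hsp70 ATPase, and with nucleotide exchange factors such as the BAG and Hsp110 proteins. In the ER, unfolded protein activates the sensors IRE1 (Ern1), ATF6 and PERK, and the transcription factors XBP1 and ATF6 then raise transcription of ER chaperones through ER stress response elements. In the cytosol, HSF1 does the same for heat shock genes through heat shock elements, and Dex acts through the glucocorticoid receptor, a ligand-activated transcription factor that is itself a client of the Hsp90 chaperone machinery.

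The libraries held 10140211 to 33528397 assigned reads, with a median of 27998690, and the chaperone and UPR genes took 0.859 to 1.13% of them. The shallowest library was untreated WT replicate 3. Reads of the targeted gene Ms4a4a were lower in KO but still present: untreated libraries held 91.9, 81.8 and 93.5 CPM (counts scaled to the library's total) in WT and 44.3, 46.3 and 49.6 in KO. All 3 KO libraries lay below all 3 WT libraries in every condition other than vehicle at 24 h, where KO replicate 2 held 179 CPM against 142 to 213 in WT. That library also stood apart on an axis running from the vehicle mean (0) to the Dex mean (1) at 24 h, at 0.212, where the other vehicle libraries of that time lay between -0.0805 and 0.096. All 8 macrophage markers examined were measured, with medians over the libraries of 87.6 (Fcgr1) to 18071 CPM (Lyz2). Stromal markers were low but rose with Dex at 24 h in 4 of 4 measured genes, and their summed level was 8.98 to 41.8 CPM in the Dex libraries of 24 h and 4.95 to 14 CPM in the vehicle libraries.

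Promoters of these genes are known for short elements that the UPR and heat shock factors bind, and the ones found are shown because most genes with the first of them changed in the same direction at 8 h. RefSeq promoter entries of build GRCm38.p6 matched 73 of the 87 genes by symbol. The 250 bases before each start site were searched on both strands. The ER stress response element (ERSE), searched as CCAAT, any 9 bases and CCACG, was present before 8 of the 73 genes (11.0%), 37 of all 32851 mouse promoter entries (0.113%) and 13 of the 8592 measured genes with an entry (0.151%). Among ER chaperones with an entry it was in 6 of 16. Promoters of such genes are known for the element, and Calr, Canx, Creld2 and Syvn1 were added to the set by name. The higher share is therefore a description of the chosen set and no independent result. Capitals mark its CCAAT and CCACG ends in these windows of 59 bases, each written 5′ to 3′ on the strand where the element reads forward. Distances are from the RefSeq start. The GENCODE gene of Hspa5 begins further upstream and already includes its element, which is shown without flanks.
Calr (chr8:84847055-84847113, plus strand, 162 to 144 bases before the start site): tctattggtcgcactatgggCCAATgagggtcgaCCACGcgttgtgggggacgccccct
Canx (chr11:50325780-50325838, minus strand, 145 to 127 bases before the start site): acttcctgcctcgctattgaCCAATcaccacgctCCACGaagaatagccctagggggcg
Creld2 (chr15:88819500-88819558, minus strand, 126 to 108 bases before the start site): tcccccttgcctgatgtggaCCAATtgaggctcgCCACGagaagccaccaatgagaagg
Dnajc3 (chr14:118937807-118937865, plus strand, 105 to 87 bases before the start site): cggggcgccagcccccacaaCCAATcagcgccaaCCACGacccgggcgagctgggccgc
Hsp90b1 (chr10:86705513-86705571, plus strand, 107 to 89 bases before the start site): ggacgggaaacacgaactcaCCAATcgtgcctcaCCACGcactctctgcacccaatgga
Hsp90b1 (chr10:86705618-86705676, minus strand, 212 to 194 bases before the start site): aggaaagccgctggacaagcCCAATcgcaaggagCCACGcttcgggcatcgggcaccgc
Hspa5 (chr2:34772025-34772043, plus strand, 65 to 47 bases before the start site): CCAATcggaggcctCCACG
Pdia6 (chr12:17266471-17266529, plus strand, 98 to 80 bases before the start site): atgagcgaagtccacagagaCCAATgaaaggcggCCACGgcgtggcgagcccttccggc
Syvn1 (chr19:6046512-6046570, plus strand, 44 to 26 bases before the start site): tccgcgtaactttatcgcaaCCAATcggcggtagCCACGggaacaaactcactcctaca

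Hsp90b1 held 2 copies, facing opposite ways, and Hspa5 and Syvn1 held the copies closest to the start site. The related element ERSE-II, searched as ATTGG, any 1 base and CCACG, was present before 1 gene, Herpud1, and in 10 of the 32851 entries (0.03%). The 250 bases before the Herpud1 start are printed whole, with ERSE-II in capitals, because Herpud1 was the ER gene that responded most to Dex.
Herpud1 (chr8:94386179-94386428, plus strand): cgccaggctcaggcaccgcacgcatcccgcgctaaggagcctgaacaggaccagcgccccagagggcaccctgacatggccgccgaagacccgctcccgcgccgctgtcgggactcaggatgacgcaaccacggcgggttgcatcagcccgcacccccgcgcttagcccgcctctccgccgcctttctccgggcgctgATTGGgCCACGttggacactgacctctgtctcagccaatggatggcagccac

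The heat shock element, searched as GAA, any 2 bases, TTC, any 2 bases and GAA, was present before Dnajb6, Hspd1 and Hspe1, 3 of 73 genes (4.11%) against 153 of the 32851 entries (0.466%). The set was chosen by symbols of heat shock genes, so this share too is only a description. Hspd1 and Hspe1 are transcribed away from each other on chromosome 1, and their windows overlap and hold the same pair of overlapping matches, one on each strand. Both are written 5′ to 3′ on the strand where they read forward and in capitals throughout, with their distance from the Hspe1 start.
Hspe1, plus strand, 84 to 72 bases before the start: GAACCTTCCGGAA
Hspe1, minus strand, 89 to 77 bases before the start: GAAGGTTCTAGAA

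A glucocorticoid receptor element, searched as GNACA, any 3 bases and TGTNC, was in 0 of the 73 windows and in 127 of the 32851 entries (0.387%). That says only that these letters are not within 250 bases of these start sites. A match is likewise a description of the letters and no measure of binding.

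In untreated WT macrophages the highest levels of the set belonged to ER chaperones. Levels between genes are compared here per kilobase of annotated exon. Calr, the lectin chaperone calreticulin, stood highest at 305 ± 19.1 CPM per kilobase (SD, n = 3), followed by Pdia3, its disulfide isomerase partner, at 254 ± 15. Hspa5, the ER Hsp70 also called BiP, was at 217 ± 10.3, Hsp90b1, the ER Hsp90, at 161 ± 10.4, and Canx, the membrane-bound lectin chaperone calnexin, at 155 ± 3.95. The last pair did not differ beyond their spread. Hspd1, the mitochondrial chaperonin Hsp60, was at 67.1 ± 0.096. ER genes also stood low, such as Hyou1, the nucleotide exchange factor of BiP, at 2.2 ± 0.42, below the cytosolic Dnaja1 at 19.8 ± 0.636. The inducible Hsp70 gene Hspa1b was at 0.392 ± 0.0913 and the small heat shock protein gene Hspb1 at 0.37 ± 0.324 CPM per kilobase.

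Dex changed about as large a share of these genes as of all genes at each time. A gene was called changed when its Benjamini-Hochberg adjusted p from edgeR's quasi-likelihood test, over all 11160 genes, was under 0.05. Unless stated otherwise, the Dex effect is the mean of the effects in WT and KO, each against vehicle of the same time, from 12 libraries. At 2 h, 10 of the 87 rose and 3 fell, 14.9% against 14.5% of all genes (8.14% and 6.41% by direction). At 8 h, 20 rose and 26 fell, 52.9% against 52.2% (27.5% and 24.7%). At 24 h, 27 rose and 19 fell, 52.9% against 53.6% (26.8% and 26.8%). These shares of all genes also belong beside the counts of the role groups below, which hold only 3 to 21 genes each. The median log2 fold change of the 87 genes was 0.00, -0.04 and 0.05 at the 3 times, against -0.00, 0.01 and 0.01 over all genes. Without KO vehicle replicate 2, 43 genes were called at 24 h, 42 of them shared with the 46, and Bag6, Creld2, Dnajc25 and Hspbp1 were lost and Atf6 was gained.

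**Figure D1:**
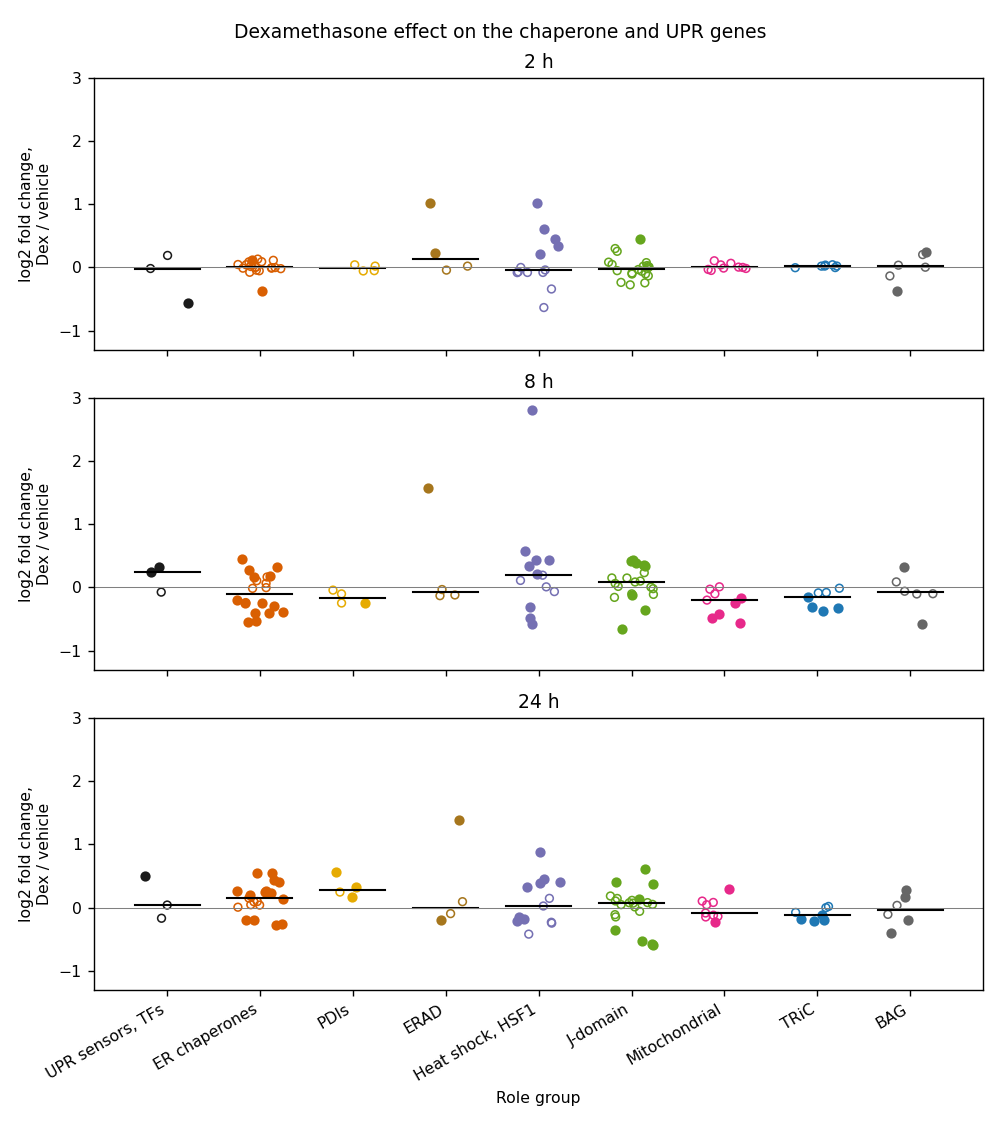
Log2 fold change of Dex over vehicle (mean of both genotypes, y axis) for each of the 87 genes, grouped by role (x axis), at 2, 8 and 24 h. Filled points passed the edgeR test, open points did not, and bars are group medians; ER chaperones had a median of -0.11 at 8 h and 0.15 at 24 h.

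Among the UPR sensors and factors, Xbp1 rose at 8 and 24 h, Atf6 rose at 8 h and Ern1 fell at 2 h. Xbp1, the transcription factor whose mRNA IRE1 splices, held 129.9, 136 and 156 CPM (lowest, median and highest of 6 libraries, 3 of each genotype) with vehicle at 8 h and 168, 172 and 179 with Dex. At 24 h the values were 137, 152 and 165 with vehicle and 197, 212 and 235 with Dex. Every Dex library lay above every vehicle library at both times. The log2 fold change was 0.32 ± 0.05 (SE) at 8 h (edgeR adjusted p = 4.95e-06) and 0.51 ± 0.05 at 24 h (edgeR adjusted p = 7.77e-10). The counts are per gene, so spliced and unspliced Xbp1 mRNA were not separated. Ern1, which encodes the kinase and nuclease IRE1, held 44.9, 49.1 and 51.9 CPM with vehicle at 2 h and 24.7, 34 and 42.9 with Dex, and the ranges were apart. Its log2 fold change was -0.57 ± 0.09 (edgeR adjusted p = 1.64e-05). Vehicle itself had raised Ern1 over untreated cells at 2 h by 0.38 on the log2 scale, and both comparisons use the same vehicle libraries. Atf6, the ER-anchored transcription factor, rose by 0.25 ± 0.08 at 8 h (edgeR adjusted p = 0.00798) and did not pass the test at 2 or 24 h. Without KO vehicle replicate 2 it was called lower at 24 h (-0.20 ± 0.08, edgeR adjusted p = 0.0465).

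Herpud1 was the ER gene with the largest response, and it was raised at all 3 times. It encodes a membrane protein that organises the ERAD complex, and lies at chr8:94386438-94395377, plus strand (GRCm38), overlapping an antisense gene, Gm15890, whose reads may not be separable. At 2 h Herpud1 held 17.9, 19.6 and 20.2 CPM with vehicle and 34.8, 39.6 and 43.6 with Dex. Vehicle libraries at 8 h held 13.4, 13.8 and 15 CPM and Dex libraries 39.2, 42.6 and 43.2. This vehicle level was below the untreated means of 19.1 (WT) and 18.2 CPM (KO), which bears on the fold change at 8 h. By 24 h the vehicle libraries held 15.7, 22.5 and 33.6 CPM and the Dex libraries 49.4, 59.7 and 67.2. Dex and vehicle did not overlap at any time, although 1 vehicle library of 24 h, WT replicate 1, stood above the others. The fold change was 2.02, 2.98 and 2.62 at 2, 8 and 24 h, with log2 values of 1.02 ± 0.10, 1.58 ± 0.10 and 1.39 ± 0.10 (edgeR adjusted p = 4.51e-10, 3.97e-15 and 5.65e-14). The other ERAD genes did not follow it. Edem1, which directs misfolded glycoproteins to degradation, rose at 2 h and fell at 24 h, with log2 fold changes of 0.23 and -0.20, and both calls were lost in some fits without 1 library (4 of 12 fits at 2 h and 2 of 12 at 24 h). Sel1l and Syvn1, the scaffold and the ubiquitin ligase of the same complex, were called at no time, with log2 values between -0.13 and 0.09.

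Several ER lumenal chaperones fell with Dex at 8 h and rose at 24 h. Of the 20 ER chaperones and co-chaperones, 5 rose and 9 fell at 8 h, and 10 rose and 4 fell at 24 h. Of the 87 genes, 6 were called lower at 8 h and higher at 24 h, and all were lumenal: Hspa5, Hsp90b1, Manf, Creld2, Dnajb11 and the disulfide isomerase Pdia6. That pattern was met by 94 of all 11160 genes (0.842%), and the opposite pattern, higher at 8 h and lower at 24 h, by 0 of the 87 and 148 of all genes (1.33%). At 2 h the group was nearly still, with 1 gene called higher and 1 lower.

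Hspa5 (BiP), the ER Hsp70 that also holds the UPR sensors inactive, lies at chr2:34771970-34777547, plus strand (GRCm38). It held 867, 966 and 1039 CPM in untreated cells. With vehicle at 8 h it held 722, 773 and 784 CPM and with Dex 601, 639.5 and 677. At 24 h it held 814, 961 and 1043 CPM with vehicle and 1215, 1346 and 1586 with Dex. The 8 h Dex libraries were the lowest of all conditions, the 24 h Dex libraries the highest, and neither overlapped its vehicle. The log2 fold change was -0.25 ± 0.06 at 8 h and 0.54 ± 0.06 at 24 h (edgeR adjusted p = 0.000345 and 7.11e-10), and the difference between the 2 effects was 0.79 ± 0.08 (edgeR adjusted p = 1.93e-09).

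Manf, a secreted ER protein that binds BiP, moved alike on a lower level. Vehicle libraries held 42, 46.7 and 49.5 CPM at 8 h against 31.8, 35.6 and 39.2 with Dex. At 24 h the values were 44.7, 55 and 58.5 and 57.7, 78.5 and 94.1, and here the lowest Dex library lay within the vehicle range. Its log2 fold change was -0.38 ± 0.10 at 8 h and 0.54 ± 0.09 at 24 h (edgeR adjusted p = 0.00101 and 1.05e-05). Manf overlaps Dcaf1 on the opposite strand and Rbm15b on its own, so some of its reads may be theirs. Hsp90b1 changed by -0.29 and 0.26 and Dnajb11, a BiP co-chaperone, by -0.21 and 0.23 at 8 and 24 h. Creld2, a chaperone of secreted proteins, changed by -0.40 and 0.19, and its call at 24 h held in only 5 of the 12 fits without 1 library. It was lost without KO vehicle replicate 2 (edgeR adjusted p = 0.0582), among others.

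Some ER genes took part in only one side of this course. Sdf2l1, which assists BiP, held 49, 58 and 68.8 CPM with vehicle and 38.3, 39.9 and 42.8 with Dex at 8 h, with no overlap, the largest fall of an ER chaperone (log2 fold change -0.54 ± 0.09, edgeR adjusted p = 1.05e-05). Calr held 621, 669.7 and 801 and 490.5, 507 and 549 CPM, again apart (log2 fold change -0.41 ± 0.06, edgeR adjusted p = 1.43e-06). At 24 h neither passed the test (0.09 and 0.04 on the log2 scale). Canx fell at both times, by 0.25 and 0.27. Dnajc3 (P58IPK), a BiP co-chaperone that also restrains PERK, did the reverse of Calr. It held 130.0, 136 and 152 CPM with vehicle and 174, 185 and 208 with Dex at 24 h, without overlap (log2 fold change 0.44 ± 0.04, edgeR adjusted p = 2.8e-10), and did not pass the test at 8 h (0.07). Dnajb9 (ERdj4), an ERAD-linked BiP co-chaperone, rose at both times, by 0.45 and 0.40. Hyou1 was called at no time.

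Of the 4 disulfide isomerase genes, which encode enzymes that form and reshuffle disulfide bonds, 3 rose at 24 h, 0 fell, and all 4 had positive values. Pdia4 held 78.8, 100.1 and 117 CPM with vehicle and 124, 150.0 and 165 with Dex, and the ranges were apart (log2 fold change 0.56 ± 0.07, edgeR adjusted p = 1.4e-08). Pdia6 fell by 0.24 at 8 h and rose by 0.32 at 24 h. Pdia3 rose by 0.17 at 24 h, a call lost when only the compared libraries were fitted. All these changes are over vehicle. With Dex at 24 h, mean Pdia3 was 732 (WT) and 780 CPM (KO), against 796 and 916 untreated. Mean Pdia6 was 288 and 329 CPM, against 290 and 347 untreated. Only Pdia4 had both means above untreated (141 and 153 against 118 and 128 CPM). Dex against untreated cells was not tested. From 8 to 24 h the Dex effect itself went up in 3 of these 4 genes and in 10 of the 20 ER chaperones, and went down in 0 and 2. Over the 87 genes it went up in 27 and down in 10 (42.5%, against 25.9% of all genes, where 9.92% went up and 16.0% down).

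**Figure D2:**
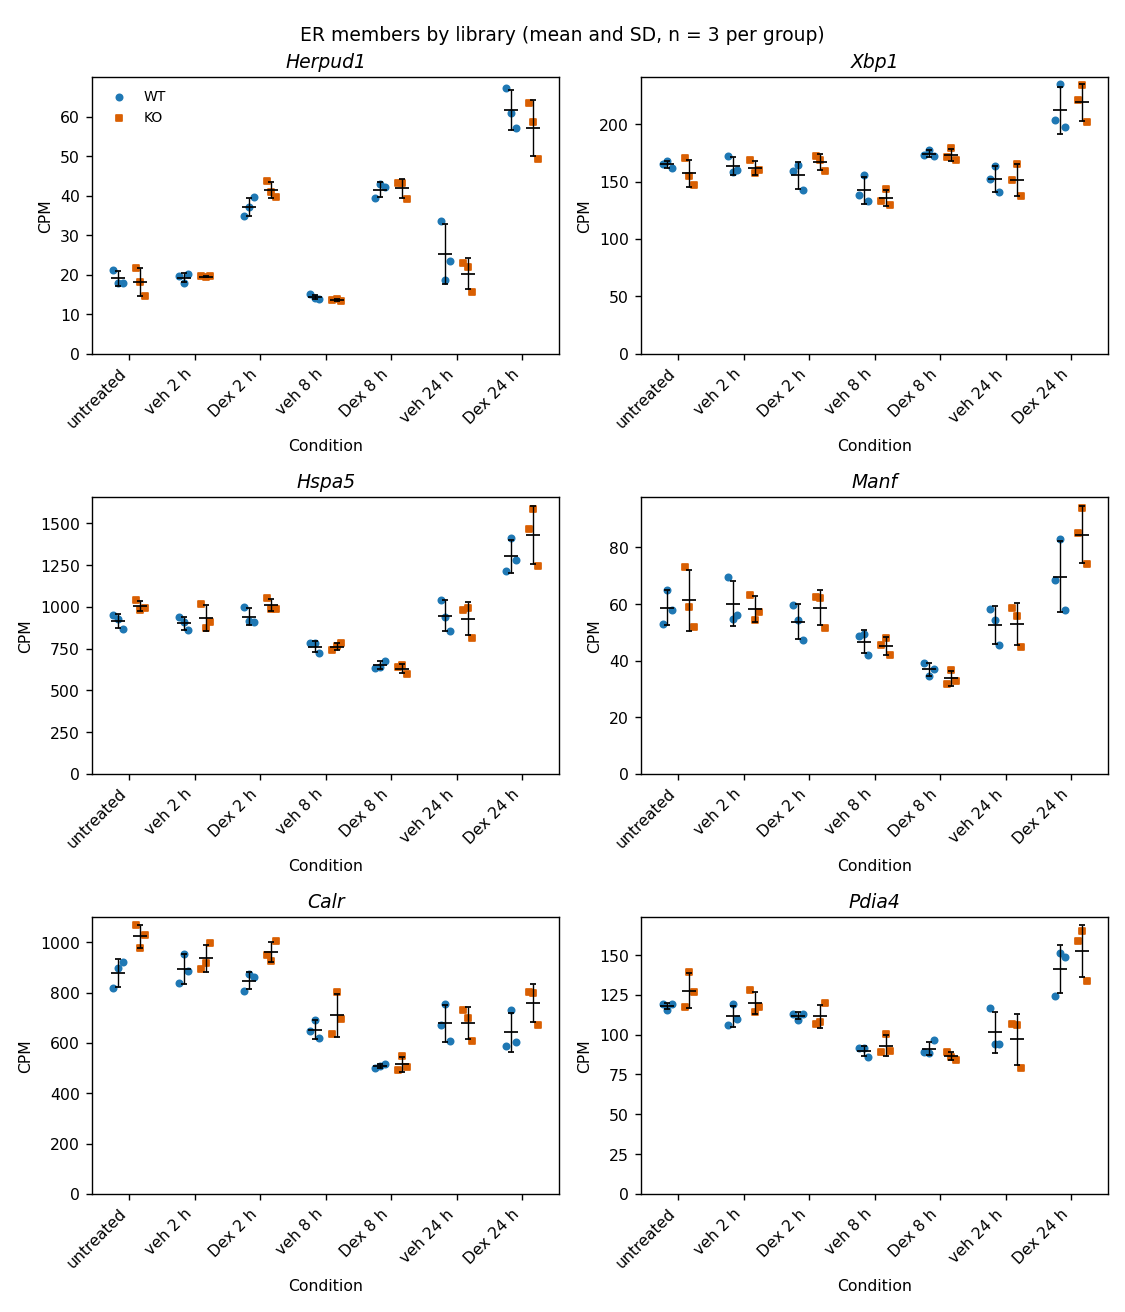
CPM per library (y axis) of 6 ER genes in the 14 groups (x axis), WT as circles and KO as squares, with the mean and SD of 3 libraries. By group mean, Hspa5, Manf and Calr are lowest with Dex at 8 h, and Hspa5, Manf, Pdia4, Xbp1 and Herpud1 are highest with Dex at 24 h.

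**Figure D3:**
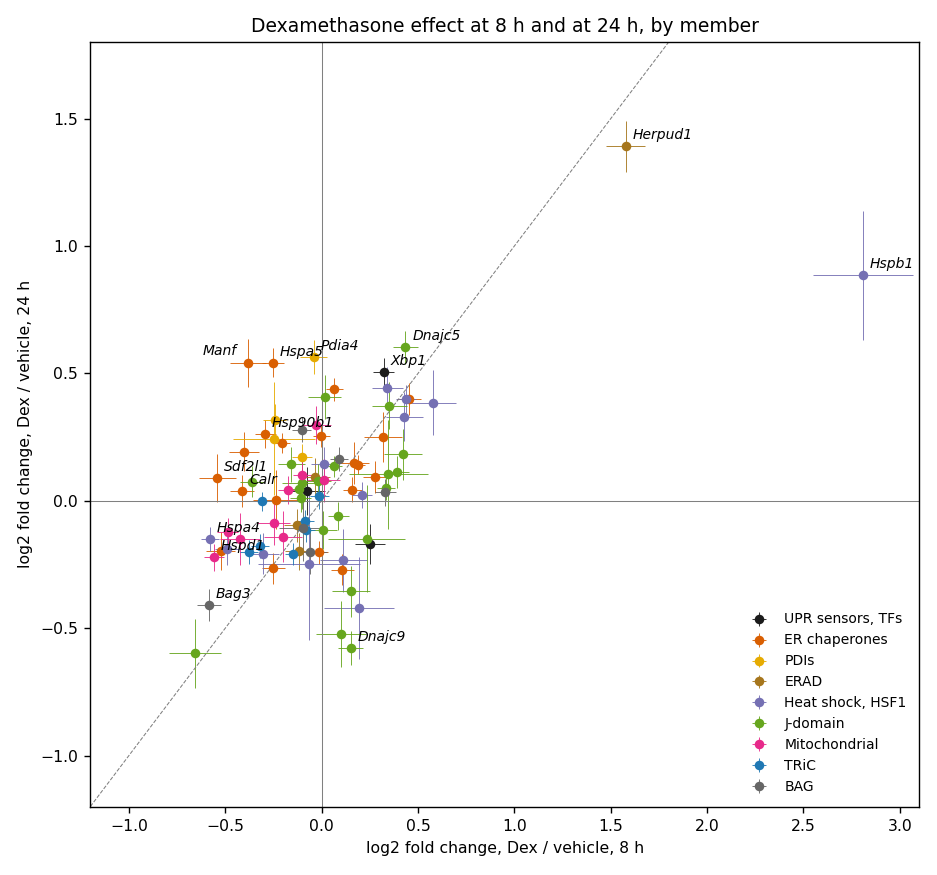
Log2 fold change of Dex over vehicle at 8 h (x axis) and at 24 h (y axis) for the 87 genes, coloured by role, with standard errors. The dashed line marks equal effects; Hspa5, Manf, Hsp90b1 and Pdia6 lie at the upper left, lower at 8 h and higher at 24 h, and Herpud1 lies far up and to the right.

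Of the 8 genes with an ERSE before their start, 4 both fell at 8 h and rose at 24 h. The same pattern was met by 5 of the 20 ER chaperones, 1 of the 4 disulfide isomerases and 0.842% of all genes. The element was shown because most of these 8 genes shared a direction at 8 h, so the counts are only a description. By time, 6 were called lower and 0 higher at 8 h (median log2 fold change -0.25), and 5 were called higher and 1, Canx, lower at 24 h (median 0.23). At 2 h 0 of the 8 were called. The shares of all genes called in each direction at these times are given above. Manf and Dnajb11, not among these 8, also fell at 8 h and rose at 24 h. Sdf2l1, likewise outside the 8, fell at 8 h. A link between the element and these changes was not tested. The sequences printed above for Hspa5, Hsp90b1, Creld2 and Pdia6 belong to genes that both fell and rose, those for Calr and Canx to genes that fell at 8 h, and that for Dnajc3 to a gene that rose at 24 h. Herpud1, the holder of ERSE-II, rose at both times instead.

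In the cytosol, Hspb1 rose most of all the chaperone genes, and Hspa4, Hsph1 and Bag3 fell. Hspb1, which encodes the small heat shock protein Hsp27, lies at chr5:135887919-135889563, plus strand (GRCm38). It was near the lower end of detection without Dex, with 0.487, 0.577 and 0.704 CPM in the vehicle libraries of 2 h and 0.473, 0.559 and 0.83 in those of 8 h. With Dex it held 0.754, 1.18 and 1.64 CPM at 2 h and 3.9, 4.25 and 5.41 at 8 h, above every vehicle library at both times. At 24 h vehicle had itself risen to 0.775, 1.03 and 1.7 CPM and Dex held 1.14, 1.75 and 2.97, and these ranges overlapped. The fold change was 2.02, 7 and 1.85 (log2 1.01 ± 0.28, 2.81 ± 0.26 and 0.89 ± 0.25, edgeR adjusted p = 0.00853, 3.6e-11 and 0.0036). In bulk RNA, more cells with a transcript and more transcript per cell cannot be told apart. Of the 4 stromal markers measured, 0 were called with Dex at 2 or 8 h and all 4 were higher at 24 h, and their part in the 24 h values of low genes such as Hspb1 was not tested.

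Hspa4, an Hsp110-type exchange factor for cytosolic Hsp70, held 146, 153 and 162 CPM with vehicle at 8 h and 96.3, 104 and 109.6 with Dex. The highest Dex library was below the lowest vehicle library (log2 fold change -0.58 ± 0.05, edgeR adjusted p = 3.82e-12). Hsph1, of the same family and also called Hsp105, fell by 0.49 at 8 h and 0.19 at 24 h. The paralog Hspa4l went the other way at all 3 times (0.21, 0.44 and 0.40), as did Hspbap1, whose product binds Hsp27 (0.45, 0.34 and 0.44), and Hspa2, an Hsp70 best known from testis (0.34, 0.43 and 0.33, the first lost in 3 of 12 fits without 1 library). Hspb6, another small heat shock protein gene, rose by 0.58 at 8 h and 0.39 at 24 h.

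Hspa14, a ribosome-associated Hsp70, showed a brief response. It held 53.8, 55.2 and 57.7 CPM with vehicle and 73.9, 84.5 and 93.4 with Dex at 2 h, all Dex libraries higher (log2 fold change 0.61 ± 0.05, edgeR adjusted p = 1.21e-11). The effect was 0.21 ± 0.05 at 8 h and 0.02 ± 0.05 at 24 h, the latter not past the test. Hspa14 overlaps the same-strand gene Gm45902, and the reads of the pair may not be separable.

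Bag3, which couples Hsp70 to small heat shock proteins and autophagy, fell at every time. It held 41.8, 48.3 and 53, then 39.4, 43.9 and 46.6, then 36.4, 40.0 and 44 CPM with vehicle at 2, 8 and 24 h. With Dex it held 33.6, 35.9 and 41.9, then 27.3, 29.5 and 30.1, then 26.5, 30.7 and 32.8. The groups were apart at 8 and 24 h and overlapped at 2 h. The log2 fold change was -0.37 ± 0.06, -0.59 ± 0.06 and -0.41 ± 0.06 (edgeR adjusted p = 1.64e-05, 9.86e-10 and 1.34e-06). Vehicle alone raised Bag3 over untreated cells, by 0.42 at 2 h, and Dex levels at 2 h lay near the untreated 30.3, 35.7 and 39.9 CPM. Bag4, which binds Hsp70 and death receptors, rose by 0.24 and 0.33 at 2 and 8 h. Hsf1, the heat shock transcription factor, was called at no time, with log2 values of -0.00, 0.01 and 0.14.

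Of the 9 mitochondrial chaperone genes, 5 fell at 8 h and 0 rose. The share called in either direction was near that of all genes at this time. Hspd1, which encodes Hsp60, held 150.3, 158 and 172 CPM with vehicle and 102, 105 and 120.4 with Dex, with a clear gap between the groups (log2 fold change -0.56 ± 0.05, edgeR adjusted p = 4.75e-11). Hspe1, its co-chaperonin Hsp10, held 46.2, 55.5 and 62 and 36, 41.2 and 45.3 CPM, also without overlap (log2 fold change -0.42 ± 0.10, edgeR adjusted p = 0.000787). These 2 genes share the stretch with the heat shock element printed above, and their annotated ends overlap, so they are not independent observations. Hspa9, the mitochondrial Hsp70 mortalin, held 235, 259.5 and 269.8 CPM with vehicle and 163, 188 and 189 with Dex (log2 fold change -0.49 ± 0.05, edgeR adjusted p = 2.65e-09), and the groups were apart. By 24 h the effect had gone up in 5 of the 9 genes and down in 0. At that time Hspd1 remained lower (-0.22 ± 0.05, edgeR adjusted p = 0.000511), Dnajc30, a J-domain protein of the respiratory chain, was higher (0.30), and the other 7 were not called.

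TRiC is the ring-shaped cytosolic chaperonin that folds actin and tubulin, and its subunit genes changed by small amounts. At 8 h 4 of 7 subunit genes fell and all 7 had negative values, between -0.38 and -0.01. At 24 h 4 fell again, with a median of -0.12. At both times the share called was near that of all genes. Cct3 held 121, 128 and 134 CPM with vehicle at 8 h and 94.1, 94.6 and 107 with Dex, without overlap (log2 fold change -0.38 ± 0.05, edgeR adjusted p = 1.85e-08). Cct3, Cct7 and Tcp1 were lower at both times, Cct8 at 8 h and Cct4 at 24 h. Cct2 was called at no time.

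**Figure D4:**
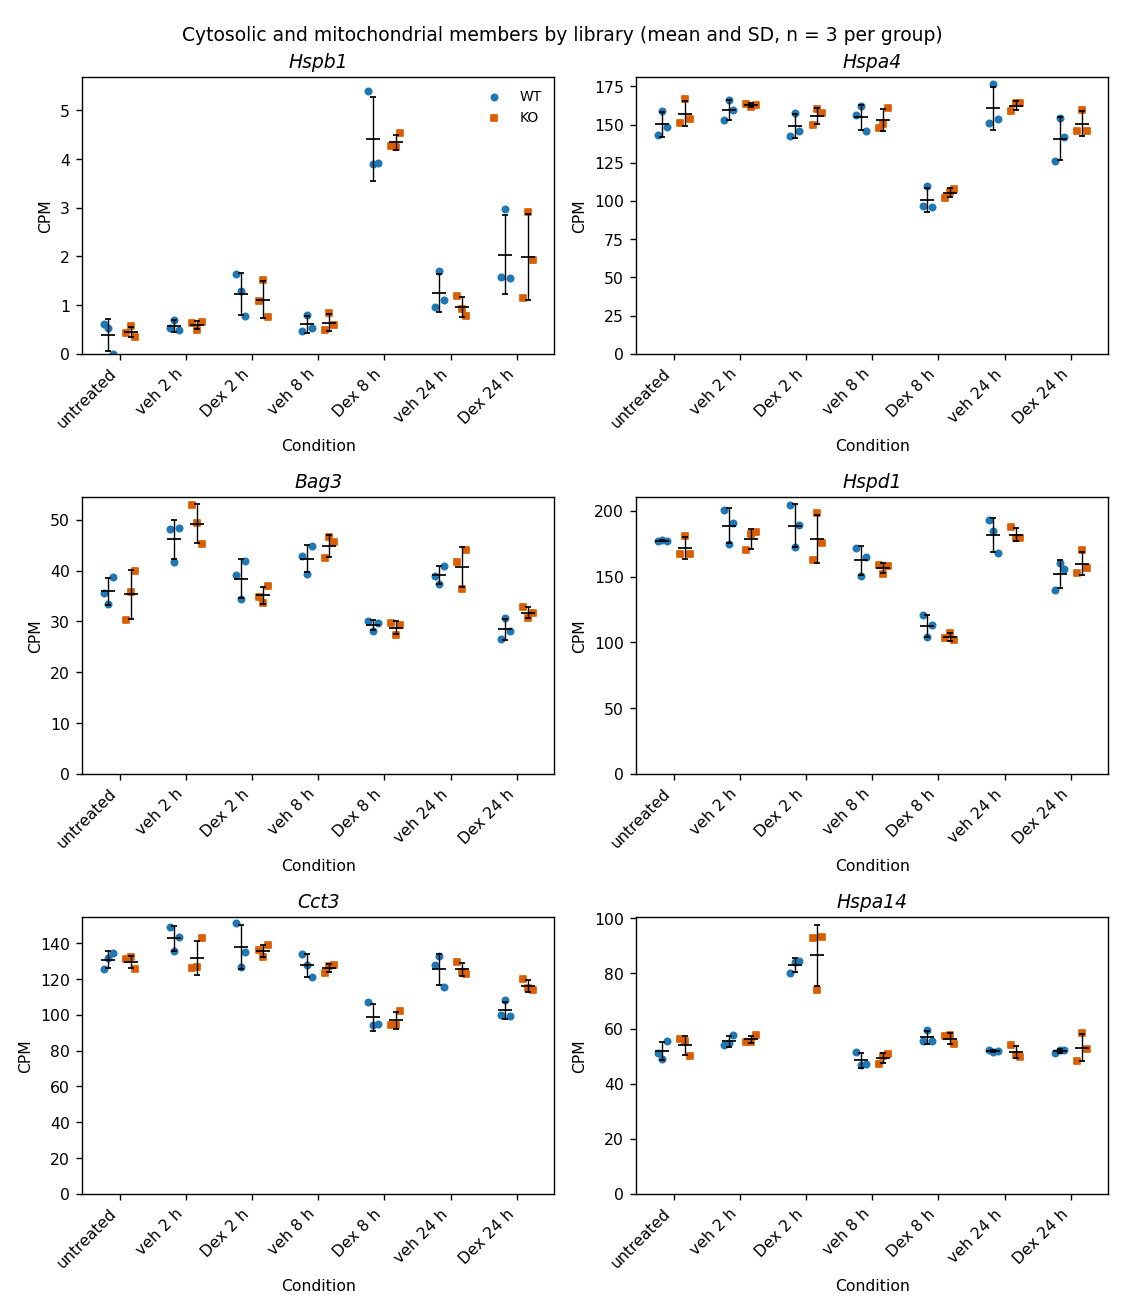
CPM per library (y axis) of 6 cytosolic and mitochondrial chaperone genes in the 14 groups (x axis), WT as circles and KO as squares, with the mean and SD of 3 libraries. Hspb1 is highest with Dex at 8 h, Hspa14 with Dex at 2 h, and Hspa4, Hspd1 and Cct3 lie below vehicle with Dex at 8 h.

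The 21 cytosolic and nuclear J-domain genes had no common direction, with 5 called higher and 3 lower at 8 h and 4 and 4 at 24 h. At both times the share called was below that of all genes. Dnajc5, the cysteine string protein of exocytic vesicles, rose most at 24 h: 151, 165 and 180.2 CPM with vehicle and 230.0, 247 and 283 with Dex, all Dex libraries higher (log2 fold change 0.60 ± 0.06, edgeR adjusted p = 9.55e-10). Dnajc9, a nuclear histone co-chaperone, held 33.6, 37.7 and 42.9 CPM with vehicle and 23.6, 25.2 and 29.9 with Dex at 24 h, all Dex libraries lower (log2 fold change -0.58 ± 0.07, edgeR adjusted p = 6.08e-09), and was not called at 2 or 8 h. Dnajc27, which carries a small GTPase domain, fell by 0.66 and 0.60 at 8 and 24 h, on a level of about 3 to 8 CPM. Dnajb4, a partner of cytosolic Hsp70, rose at 2 h only, from 41.4, 43.6 and 46 to 51.9, 60.3 and 71.4 CPM, and the ranges were apart (log2 fold change 0.45 ± 0.07, edgeR adjusted p = 1.59e-05). Dnajb1, the main Hsp40 of the heat shock response, rose at 8 h only, by 0.33 ± 0.05 (edgeR adjusted p = 2.26e-07), and Dnaja1 at no time.

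Culture with vehicle changed some of the same genes, which bears on every Dex value since the vehicle libraries are shared by both comparisons. Against untreated cells, averaged over genotypes, 9 of the 87 genes were higher and 1 lower at 2 h (11.5%, against 13.8% of all genes, 7.03% and 6.72% by direction), 10 and 17 at 8 h (31.0% against 18.2%, 8.49% and 9.66%) and 15 and 15 at 24 h (34.5% against 31.0%, 15.6% and 15.4%). Of the 10 ER genes that were lower with Dex than with vehicle at 8 h, 7 were also lower with vehicle than in untreated cells, 2 (Canx and Creld2) were not called, and Dnajb14 was higher (0.27). The vehicle log2 fold changes of the 7 were -0.13 for Dnajb11, -0.41 for Pdia6, -0.54 for Sdf2l1, -0.48 for Calr, -0.38 for Manf, -0.33 for Hspa5 and -0.28 for Hsp90b1. Pdia3 and Pdia4 were lower too at 8 h (-0.34 and -0.43). All 4 disulfide isomerase genes were lower at 24 h, a call that Pdia5 lost without KO vehicle replicate 2. The inducible Hsp70 genes rose with vehicle at 2 h. Hspa1a held 1.57, 1.81 and 2.64 CPM untreated and 3.39, 3.94 and 5.9 with vehicle at 2 h, with all vehicle libraries higher (log2 fold change 1.07 ± 0.18, edgeR adjusted p = 7.39e-05). Hspa1b showed 1.02 ± 0.29 (edgeR adjusted p = 0.0133). Hspa1a and Hspa1b are near-identical copies on chromosome 17, so their reads may be split between them. Summed into 1 row, a check added after the data were seen, they gave 1.06 ± 0.16 (edgeR adjusted p = 1.68e-05). Averaged over genotypes, the Dex effect on the pair passed the test at no time, separately or summed. In KO alone at 2 h the sum was lower with Dex (-0.81 ± 0.22, edgeR adjusted p = 0.0108). In WT it was -0.06 ± 0.22 (edgeR adjusted p = 0.911). The difference between the genotypes did not pass the test (-0.75 ± 0.31, edgeR adjusted p = 0.544).

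No difference in the Dex response between the genotypes passed the test. In WT alone 5, 39 and 35 of the 87 genes were called at 2, 8 and 24 h (against 9.02%, 37.0% and 41.7% of all genes), and in KO 8, 39 and 35 (against 10.4%, 38.5% and 38.3%). Called in both were 3, 35 and 22 (3.45%, 40.2% and 25.3%, against 6.33%, 31.5% and 30.4% of all genes), all with the same sign, as were all but 1 of the genes called in both over the whole table. Without KO vehicle replicate 2, 28 genes were called in KO at 24 h, 27 of them shared with the 35. Hspb1 and Hspd1 were among those lost. The difference of the Dex effect between genotypes was called for 0 of the 87 genes at each time by edgeR and by DESeq2, and for 0 of all 11160 genes by edgeR. At an unadjusted p under 0.05 there were 6, 1 and 6 of the 87 (6.9%, 1.15% and 6.9%, against 8.84%, 1.19% and 5.05% of all genes). The median standard error of that difference was 0.13 on the log2 scale, so differences of that order were not detectable for a typical gene of the set. Larger ones could be missed as well, such as that of Dnajc1 at 24 h (0.37 ± 0.09, edgeR adjusted p = 0.89). Herpud1, for example, changed at 24 h by 1.28 ± 0.14 in WT and 1.5 ± 0.14 in KO, a difference of 0.22 ± 0.19 (edgeR adjusted p = 0.896). For Hspa5 the effects were 0.46 ± 0.08 and 0.62 ± 0.08, a difference of 0.16 ± 0.11 (edgeR adjusted p = 0.89).

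KO against WT was tested in each of the 7 conditions. In 6 of them edgeR and DESeq2 each called 0 of the 87 genes (with Dex at 2 h, DESeq2 gave no adjusted p for 75 of them), beside 0 of all genes by edgeR, or 1 (0.00896%) with vehicle at 2 h and at 8 h. At an unadjusted p under 0.05 these conditions held 1 to 9 of the 87 genes (1.15 to 10.3%, against 1.59% to 8.49% of all genes). With Dex at 24 h, 1 gene was called, Dnajc1, among 5 of all genes (0.0448%), and 13 of the 87 (14.9%) had an unadjusted p under 0.05 against 7.63% of all genes. Dnajc1 encodes an ER membrane J-domain protein, lies at chr2:18195654-18392830, minus strand (GRCm38) and overlaps Mllt10 on the opposite strand. It held 40.0, 46.9 and 44.4 CPM in the 3 WT libraries and 54.1, 52.2 and 56.6 in the 3 KO libraries, and every KO library was higher (log2 fold change 0.31 ± 0.06, edgeR adjusted p = 0.0382). With vehicle at 24 h it held 40.4, 41.3 and 43.7 CPM in WT and 40.8, 40.8 and 38.4 in KO, so the groups lay close together. With vehicle at 2 h every KO library was lower than WT (log2 fold change -0.14) and at 8 h every KO library was higher (0.09). Neither passed the test. The call with Dex at 24 h held in 1 of 6 fits without 1 library (leaving out WT replicate 1 or 3, or any KO library, lost it). It was also lost when only the 6 compared libraries were fitted. In the same condition 61 of the 87 genes were higher in KO and 26 lower, with a median of 0.07, beside 5332 of 11160 and -0.01 over all genes. All 7 TRiC genes were among the higher, between 0.12 and 0.18, and 0 of them passed the test. In other conditions all 7 lay the other way, lower in KO. Their values were between -0.15 and -0.05 with vehicle at 2 h and between -0.07 and -0.01 with Dex at 8 h. A shared direction of these genes was thus not particular to Dex at 24 h.

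**Figure D5:**
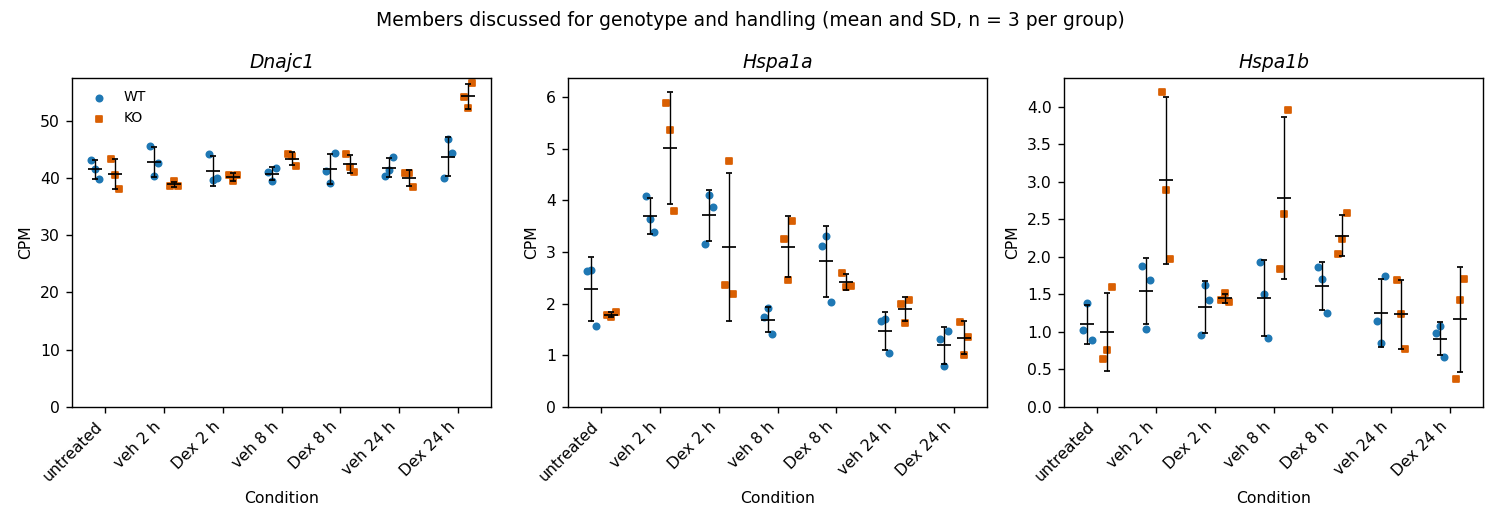
CPM per library (y axis) of Dnajc1, Hspa1a and Hspa1b in the 14 groups (x axis), WT as circles and KO as squares, with the mean and SD of 3 libraries. Dnajc1 is highest in the 3 KO libraries with Dex at 24 h, at 52.2 to 56.6 CPM, and Hspa1a and Hspa1b are low, below 6 CPM in all libraries.

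Other genes of these pathways, from a list of 123 measured genes outside the set, were called at similar or lower shares: 9 higher and 9 lower at 2 h (14.6%), 21 and 34 at 8 h (44.7%) and 34 and 27 at 24 h (49.6%). At 8 and 24 h these shares were below those of all genes given above. The genes named here are the 3 highest and 3 lowest called at each time, so their values do not describe the list. Atf3 and Chac1, transcriptional targets of the PERK branch, fell at all 3 times, Atf3 with values of -1.04 ± 0.06, -1.47 ± 0.06 and -0.90 ± 0.06 and Chac1 with values of -0.93 ± 0.30, -1.55 ± 0.37 and -2.33 ± 0.45 on the log2 scale (largest edgeR adjusted p = 0.0319). Nupr1, a stress-induced transcriptional regulator also counted with that branch, rose at 8 and 24 h (0.60 ± 0.12 and 0.35 ± 0.12, edgeR adjusted p = 5.2e-05 and 0.016). Trib3, a pseudokinase induced by the same branch, was lower at 2 h (-0.58 ± 0.18, edgeR adjusted p = 0.0254). Crebrf, a regulator of the UPR factor CREB3, was higher at all 3 times (0.44 ± 0.08, 1.14 ± 0.08 and 0.63 ± 0.08). Edem3, an ERAD mannosidase, was higher at 2 h (0.34 ± 0.09) and lower at 24 h (-0.40 ± 0.09). Wfs1, the ER membrane protein wolframin, rose at 2 h by 0.94 ± 0.10 (edgeR adjusted p = 1.01e-08). Serp1, which stabilises proteins at the ER translocon, rose by 1.08 ± 0.06 at 8 h and 1.09 ± 0.06 at 24 h (edgeR adjusted p = 3.5e-17 and 5.14e-17). Ahsa1, the activator of the Hsp90 ATPase, fell at 8 and 24 h, with log2 fold changes of -1.09 ± 0.09 and -1.15 ± 0.09 (edgeR adjusted p = 6.43e-12 and 1.8e-12). Serpinh1, the collagen chaperone Hsp47, rose at 24 h by 1.37 ± 0.44 (edgeR adjusted p = 0.00891), as did the stromal collagen markers (4 of 4, median 1.43), and their part in it was not tested.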

How the data were processed

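Total RNA from 42 libraries was prepared with a SMART-Seq mRNA kit, per the labels' protocols. The submitters' processing notes name fastp, HISAT2, Salmon and the build GRCm38, with no role or version. The deposited table holds estimated counts per gene from the authors, of which 69.5% were whole within 0.01. They were rounded to whole numbers and not changed otherwise. Every column was matched to 1 sample by its name.

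A single model of the 14 group means was fitted over all 42 libraries with edgeR 4.0.16 in R 4.3.3 (TMM scaling, quasi-likelihood F test), and p-values were Benjamini-Hochberg adjusted over 11160 genes. The filterByExpr filter removed 0 genes. Values per library are CPM scaled by TMM, and SE is the absolute log2 fold change over the square root of F. Contrasts were Dex over vehicle at 2, 8 and 24 h (per genotype, averaged, and their difference), KO over WT, and vehicle over untreated. Tests were checked on simulated counts.

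The members and all lists were chosen with earlier results of these data known. Genes named are the best-known members fixed by name, the 3 highest and 3 lowest called per role group and time, and any called between genotypes. Cct4 was named beside a count after its values were seen. Replicate numbers paired the samples (every correlation of deviations above 0.1) in Dex over vehicle in WT at 8 and 24 h and in KO at 2 and 8 h, and in KO over WT with vehicle at all times and with Dex at 2 h. Since the numbers alone give this pairing, a replicate block was run as an alternative. Other alternatives were DESeq2 1.42.0, median-ratio scaling, a minimum mean of 5 CPM, no filter, a fit of the compared libraries only, and leaving out each library. Gene positions are from GENCODE M21 (GRCm38) and promoters from RefSeq (GRCm38.p6). Protein sequences were not used here.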

Additional observations from a re-analysis of the deposited data

Results flagged for a closer look

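The effect of Dex differed between 8 and 24 h, by a test of the difference itself in the same edgeR fit, for 33 of the named genes. The values below are the log2 fold change of Dex over vehicle at 24 h minus that at 8 h, averaged over genotypes, and the largest edgeR adjusted p among them was 0.0447. Of the 33, 24 were positive and 9 negative, and 31 passed in every fit without 1 library. The exceptions were Cct3 (11 of 24 fits) and Hspa13 (15 of 24 fits, and lost when only the compared libraries were fitted).

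Among the ER chaperones and disulfide isomerases, the difference was 0.92 for Manf, 0.79 for Hspa5, 0.63 for Sdf2l1, 0.61 for Pdia4, 0.60 for Creld2, 0.56 for Pdia6 and 0.56 for Hsp90b1. It was 0.45 for Calr, 0.43 for Dnajb11, 0.37 for Dnajc3, 0.33 for Dnajb14, 0.27 for Pdia3 and 0.26 for Dnajc1. It was negative for the ER genes Dnajc18 (-0.38) and Hspa13 (-0.19) and for the factor Atf6 (-0.42).

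Outside the ER, the difference was 0.43 for Dnajc24, 0.43 for Hspa4, 0.39 for Dnajc17, 0.38 for Bag5, 0.37 for Hspa9, 0.34 for Hspd1 and 0.32 for Dnajc30. It was 0.31 for Cct8, 0.30 for Hsph1, 0.17 for Cct3 and 0.16 for Dnajb6. The negative values were -1.92 for Hspb1, -0.73 for Dnajc9, -0.62 for Dnajb5, -0.30 for Bag4, -0.28 for Dnajb1 and -0.28 for Dnajb2. Stromal markers, with 4 of 4 genes higher with Dex at 24 h and 0 of 4 at 8 h, moved between the same times, and their part in these differences was not tested.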

How the results depend on the processing

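Of 144 counts of called genes from the alternatives that keep all replicates (24 comparisons), 138 stayed within 1.5 times the value reported. The exceptions were Dex in WT at 2 h, with 5 called genes against 10 with the replicate block and 9 with DESeq2, and 4 comparisons when only the compared libraries were fitted. These gave 14 in place of 35 for Dex in WT at 24 h, 6 in place of 10 for vehicle over untreated at 2 h, 19 in place of 30 for vehicle over untreated at 24 h, and 0 in place of 1 for KO over WT with Dex at 24 h. Without 1 library, Dex in WT at 2 h gave 2 to 7 called genes (2 without Dex replicate 1 and 3 without vehicle replicate 1) and KO over WT with Dex at 24 h gave 0 to 1. Averaged over genotypes, Dex gave 10 to 17, 46 to 49 and 42 to 47. The replicate block lost 0 calls in any comparison, and in the comparisons where the numbers paired the samples it moved no count by more than 1.5 times. In Dex in WT at 2 h, where it did, the lowest correlation between numbered libraries was 0.0672.

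Of 228 calls of the named genes, 194 held in every fit without 1 library and 199 under every alternative, and 0 of the 612 values reversed. Weakly held calls were Dnajc14 and Edem1 at 2 h and Bag6, Creld2, Dnajc25, Dnajb14 and Hspbp1 at 24 h. Summing the Hspa1a and Hspa1b rows was added after the data were seen. It brought their rise with vehicle at 8 h past the test for the pair (log2 0.47, edgeR adjusted p = 0.0458). Means were 2.77 CPM untreated and 5.88 with vehicle in KO, and 3.38 and 3.15 in WT. KO over WT with vehicle at 8 h did not pass the test for the sum (0.89 ± 0.23, edgeR adjusted p = 0.835). A genotype difference of the vehicle effect was not tested. The sum was lower with Dex in KO at 2 h (-0.81, edgeR adjusted p = 0.0108), but its difference from WT did not pass (-0.75 ± 0.31, edgeR adjusted p = 0.544). Depth limits Hspb1, Hspa1a and Hspa1b most, at a few CPM.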
